A study of Mus musculus with 12 samples.

Results

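The serine and folate one-carbon enzyme genes are a set of 9 mouse genes, Phgdh, Psat1, Psph, Shmt1, Shmt2, Mthfd1, Mthfd2, Mthfd1l and Aldh1l2, whose transcripts were followed in follicular (FO) B cells after stimulation. They were taken by gene symbol from a table of 22561 genes, and each symbol matched 1 row. Of the 9 genes, 8 were among the 9431 genes with enough counts to be tested, and Aldh1l2 was not. The genes were not chosen by a threshold on their values, but they were chosen with earlier results of these data known.

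The serine synthesis enzymes make serine from a glycolytic intermediate. Serine hydroxymethyltransferases then pass a carbon unit from serine to tetrahydrofolate and leave glycine, and the folate enzymes of the cytosol and the mitochondrion oxidise or reduce the carried unit. Lymphocytes that start to grow and divide are known to draw on this pathway for purines, thymidylate and formate, and mitochondrial enzymes of the pathway are known targets of the transcription factor ATF4.

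FO B cells were sorted by flow cytometry from the spleens of C57BL6 mice of 10 weeks of age by a gate that included B220 high, AA4.1-, CD23+ and CD21 intermediate cells. There were 4 groups of 3 samples. Unstimulated cells received neither agent, and the other groups were stimulated for 12 h with IFNα, a type I interferon, at 0.1 μg/mL, with CpG, a synthetic oligodeoxynucleotide that TLR9 senses, at 1 μg/mL, or with CpG plus IFNα at these doses. A supplementary legend of the study gives CpG at 0.1 μg/mL for the combined group, and the sources do not state whether the unstimulated cells were cultured. The labels name no genotype beyond C57BL6, and they do not say whether samples with different replicate numbers came from different mice, so that p-values measure the spread between these samples, which may be technical.

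RNA was measured by bulk RNA barcoding (BRB) sequencing, which counts unique molecular identifiers (UMIs) at the 3′ end of transcripts, so that a gene's count does not grow with its length. Totals were between 922450 and 2923865 UMI counts per sample and tended to be higher with CpG. Markers of FO B cells (9 of 9 measured) summed to between 10914 and 12485 CPM (counts scaled to a common library total) in unstimulated cells, between 2413 and 2453 CPM with CpG and between 2111 and 2160 CPM with CpG plus IFNα. With CpG, the summed markers of other cells were lower too. Myeloid markers (8 of 9 measured) went from between 30.9 and 56.7 CPM to between 2.85 and 4.91 CPM, with Lyz2, Csf1r, Cd14 and S100a8 at 0 with CpG. T cell markers (5 of 8 measured) went from between 29.1 and 40.6 CPM to between 2.14 and 8.99 CPM, and nearly all of this sum was Lck, at a mean of 35.9 CPM and 6.57 CPM. Cd3g and Cd8a were at 0 in both groups, and Cd3d and Trbc2, at 0 with CpG, had 2 and 1 counts over the unstimulated samples. Marginal zone B cell markers (6 of 6) went from between 225 and 231 CPM to between 44.2 and 57.7 CPM, with none at 0. Erythroid markers (7 of 7) went from between 58.2 and 345 CPM to between 5.49 and 60.8 CPM, and plasma cell markers (5 of 5) from between 255 and 380 CPM to between 186 and 205 CPM, with Jchain at 0. With IFNα alone, marginal zone B cell markers stood between 89.8 and 124 CPM, myeloid markers between 10.9 and 21.4 CPM, erythroid markers between 16.0 and 338 CPM, plasma cell markers between 181 and 210 CPM, T cell markers between 39.5 and 50.4 CPM and FO B cell markers between 9765 and 10920 CPM. Among the FO B cell markers Fcer2a and Cr2, the genes of CD23 and CD21, were lower with IFNα, at means of 244 against 1227 CPM and 81.5 against 412 CPM. The part of these cells in the results was not tested. In bulk RNA, fewer cells of a type and less RNA per cell cannot be told apart.

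CpG raised transcripts of every enzyme of the set that could be tested. The 9 genes summed to 259 ± 24.5 CPM (SD, n = 3) in unstimulated cells, 312 ± 10.7 CPM with IFNα, 1429 ± 88.6 CPM with CpG and 1506 ± 118 CPM with CpG plus IFNα. A gene was called differentially expressed (DEG) when edgeR's quasi-likelihood test gave a Benjamini-Hochberg adjusted p under 0.1 and the log2 fold change was over 1 in size. In CpG against unstimulated cells, 7 of the 8 tested genes were DEGs that rose, against 20.1% of all genes tested, and none fell, against 25.5% of all genes. All 8 had an adjusted p under 0.1 and a higher level, against 36.5% of all genes, and in all 8 the 3 CpG samples lay above the 3 unstimulated samples, against 36.1% of all genes. Over the 8 genes the log2 fold change had a median of 2.52, and over all genes tested it was -0.03.

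**Figure D1:**
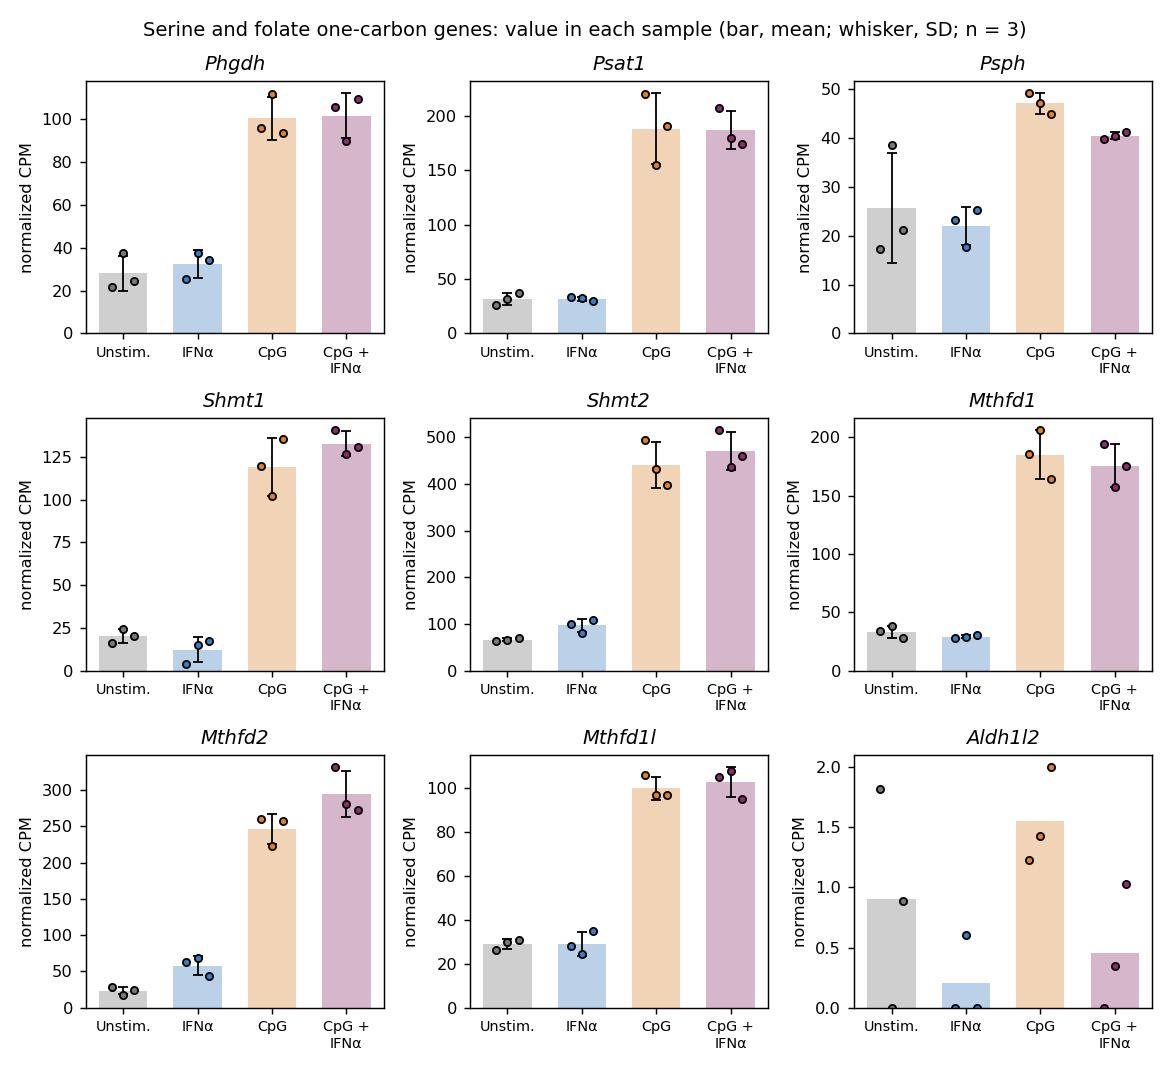
Each panel plots 1 gene in normalized CPM on an axis that starts at 0, with 1 point per sample, the bar at the group mean and the whisker at 1 SD (n = 3 per group, none drawn for Aldh1l2). The CpG and CpG plus IFNα samples lie above the unstimulated and IFNα samples for every gene but Aldh1l2, and Mthfd2 is the gene whose 3 IFNα samples, between 43.5 and 68.1 CPM, lie well above its unstimulated samples, between 18.2 and 28.2 CPM.

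Serine synthesis begins with Phgdh, the phosphoglycerate dehydrogenase that commits carbon from glycolysis to serine (chromosome 3, 98313170 to 98339990 on GRCm38, minus strand). Phgdh stood at 21.8, 37.4 and 24.7 CPM in the 3 unstimulated samples and at 95.8, 112 and 93.4 CPM in the 3 CpG samples. The groups lay far apart, and the log2 fold change was 1.85 (SE 0.18, adjusted p = 1.14e-10 by edgeR). With CpG plus IFNα Phgdh was at 106, 89.7 and 109 CPM, within the range of CpG alone or just outside it.

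Psat1 encodes the phosphoserine aminotransferase, the next enzyme of the route (chromosome 19, 15904678 to 15947337, minus strand). It stood at 26.4, 32.1 and 37.1 CPM in unstimulated cells and at 220, 155 and 191 CPM with CpG. The lowest CpG sample lay above 4 times the level of the highest unstimulated one, and the log2 fold change was 2.56 (SE 0.16, adjusted p = 2.56e-15 by edgeR). CpG plus IFNα gave 207, 179 and 174 CPM.

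Psph, the phosphatase that releases serine in the last step (chromosome 5, 129765558 to 129787449, minus strand), moved least. It stood at 17.3, 38.5 and 21.2 CPM in unstimulated cells and at 49.1, 47.0 and 44.9 CPM with CpG. The groups did not overlap, and the log2 fold change of 0.90 (SE 0.21, adjusted p = 0.000369 by edgeR) was under the limit for a DEG. The second unstimulated sample decided this, since without it the log2 fold change was 1.30 and Psph was a DEG. Exons of Psph overlap Cct6a, a chaperonin gene on the opposite strand that reached 1322 CPM. The overlap, from base 129786998 on, lies at the 5′ ends of both genes, and the method counts 3′ ends. Whether the authors' assignment of reads used strand is not given in the sources used here.

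Both serine hydroxymethyltransferase genes rose. Shmt1, which encodes the cytosolic enzyme (chromosome 11, 60788104 to 60811718, minus strand), stood at 16.4, 24.6 and 20.3 CPM in unstimulated cells and at 120, 102 and 136 CPM with CpG. Shmt2, which encodes the mitochondrial enzyme (chromosome 10, 127517123 to 127522444, minus strand), stood at 63.7, 65.2 and 69.7 CPM in unstimulated cells and at 494, 432 and 397 CPM with CpG. Neither pair of groups overlapped, and the log2 fold changes were 2.56 (SE 0.21, adjusted p = 9.23e-13 by edgeR) for Shmt1 and 2.73 (SE 0.14, adjusted p = 7.92e-18) for Shmt2. Smcr8, on the strand opposite to Shmt1, overlaps its exons and reached 31.9 CPM, whereas Ndufa4l2, which overlaps Shmt2 in the same way, reached 0.763 CPM.

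Of the folate enzymes, Mthfd2 had the largest log2 fold change among the 8 genes. It encodes a mitochondrial methylenetetrahydrofolate dehydrogenase and cyclohydrolase that is low in most resting adult tissues (chromosome 6, 83305691 to 83325908, minus strand). Mthfd2 stood at 28.2, 18.2 and 23.8 CPM in unstimulated cells and at 260, 222 and 257 CPM with CpG. The log2 fold change was 3.38 (SE 0.18, adjusted p = 1.64e-17 by edgeR), a fold of 10.4, and 72 of the 9431 genes tested, or 0.763%, had a larger one.

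Mthfd1 encodes the cytosolic enzyme that carries the same activities and also a formyltetrahydrofolate synthetase (chromosome 12, 76255298 to 76319803, plus strand). It stood at 33.7, 38.5 and 28.2 CPM in unstimulated cells and at 185, 206 and 164 CPM with CpG. Mthfd1l encodes the mitochondrial synthetase that releases formate (chromosome 10, 3973118 to 4167081, plus strand), and it stood at 26.4, 29.9 and 30.9 CPM against 106, 96.9 and 96.9 CPM. No sample of the groups overlapped for either gene, with log2 fold changes of 2.47 (SE 0.15, adjusted p = 1.57e-15 by edgeR) and 1.78 (SE 0.16, adjusted p = 2.14e-11).

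Aldh1l2 encodes the mitochondrial formyltetrahydrofolate dehydrogenase, which turns the carried unit into carbon dioxide (chromosome 10, 83487450 to 83534140, minus strand). It had 2, 0 and 1 counts in unstimulated cells, 0, 1 and 0 with IFNα, 2, 2 and 4 with CpG, and 0, 1 and 2 with CpG plus IFNα. At no more than 4 counts in any sample a change was not detectable. Exons of Aldh1l2 overlap D10Wsu102e on the opposite strand, which reached 98.7 CPM, and without a stated strand setting these few counts cannot be told apart from reads of that gene. The ratio of CpG to unstimulated cells was 1.68 with a 95% counting interval from 0.403 to 9.82. Where the filter on low counts was dropped, no comparison gave Aldh1l2 an adjusted p below 0.620 by edgeR.

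The rise with CpG was also seen in the samples that CpG against unstimulated cells did not use. Both comparisons came from 1 fit with a shared estimate of the spread. Samples of the same number may share an origin, so these samples are not an independent repeat. In CpG plus IFNα against IFNα, the same 7 genes were DEGs that rose, against 18.7% of all genes tested, and all 8 genes were higher with an adjusted p under 0.1, against 36.1%. The log2 fold changes ranged from 0.90 for Psph to 3.33 for Shmt1, with a median of 2.31. The median of all genes was -0.07. In CpG plus IFNα against unstimulated cells, which shares samples with both, 7 of 8 genes were DEGs that rose, against 20.3% of all genes, and the log2 fold changes ranged from 0.69 for Psph to 3.63 for Mthfd2.

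**Figure D2:**
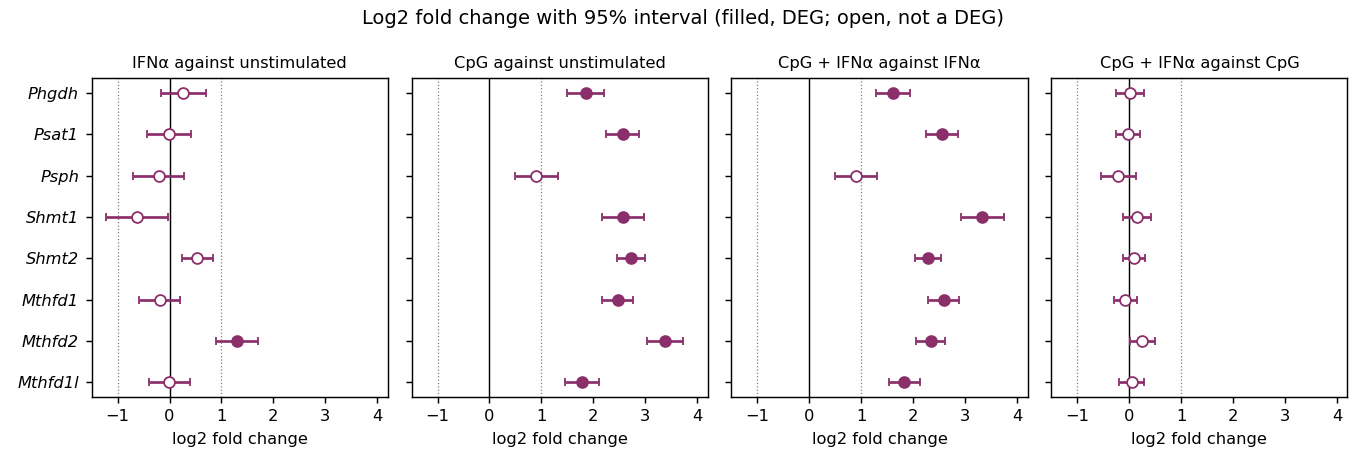
Points give the log2 fold change of each of the 8 tested genes in 4 comparisons, whiskers its 95% interval, and dotted lines the limit of 1 for a DEG. The points of both comparisons with CpG as the added agent lie between 0.90 and 3.38, those of CpG plus IFNα against CpG lie between -0.22 and 0.25, and with IFNα alone Mthfd2 is the only DEG at 1.30.

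The comparison of CpG plus IFNα with CpG asks what IFNα adds to CpG in FO B cells, whose differentiation into plasma cells the study followed. None of the 8 genes was a DEG by edgeR's quasi-likelihood test, against 2.95% of all genes tested that rose and 2.01% that fell, and none had an adjusted p under 0.1, against 15.4%, so that 0 of 8 is near the share of all genes. DESeq2 also gave 0 genes with an adjusted p under 0.1. An unadjusted p under 0.05 by edgeR was found for 2196 of the 9431 genes tested, and for 1 of the 8. This was Mthfd2, at 331, 280 and 273 CPM with both agents against 260, 222 and 257 CPM with CpG. The log2 fold change was 0.25 (95% interval 0.02 to 0.49, adjusted p = 0.187 by edgeR). Psph moved the other way, at 39.8, 40.4 and 41.1 CPM against 49.1, 47.0 and 44.9 CPM, with a log2 fold change of -0.22 (95% interval -0.55 to 0.12, adjusted p = 0.496). The 95% intervals of all 8 genes lay between -0.55 and 0.49, inside the DEG limit of 1 in either direction.

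IFNα alone raised Mthfd2. Its 3 IFNα samples stood at 62.6, 68.1 and 43.5 CPM, all above the unstimulated samples at 28.2, 18.2 and 23.8 CPM. The log2 fold change was 1.30 (SE 0.21, adjusted p = 1.49e-05 by edgeR), which made Mthfd2 the 1 DEG among the 8 genes, against 4.56% of all genes tested that rose. Shmt2 rose as well, to 101, 81.5 and 108 CPM from 63.7, 65.2 and 69.7 CPM, with a log2 fold change of 0.54 (SE 0.16, adjusted p = 0.0123), under the DEG limit. Summed markers of marginal zone B cells and of myeloid cells were lower in the same samples, as given above, and their part was not tested. Within the myeloid sum Tyrobp went from 25.2 to 4.45 CPM, while Adgre1 went from 5 to 36 counts over 3 samples. In all, 2 of the 8 genes rose with an adjusted p under 0.1, against 12.4% of all genes, which in a set of 8 is near that share. Both encode mitochondrial enzymes, but Mthfd1l, which does too, had a log2 fold change of -0.003.

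The other 6 genes did not pass the test with IFNα alone. Phgdh, Psat1 and Mthfd1l, the last also a mitochondrial enzyme, had log2 fold changes of 0.27, -0.01 and -0.00, with 95% intervals that together ran from -0.43 to 0.70. Psph and Mthfd1 were at -0.21 and -0.19. Shmt1 was at -0.63 (95% interval -1.23 to -0.03, adjusted p = 0.163 by edgeR), and its IFNα samples were uneven, with 4, 25 and 23 counts or 4.04, 15.2 and 17.6 CPM. Leaving out the first of these samples moved the log2 fold change of Shmt1 to -0.31.

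On the log2 scale, the response of Mthfd2 to CpG was smaller in the presence of IFNα. In CPM the mean of Mthfd2 went from 23.4 to 246 without IFNα and from 58.1 to 295 with it. The level with both agents was thus the highest. The log2 fold change with CpG was 3.38 without IFNα and 2.33 with it, and the difference, tested as the interaction of both agents, was -1.05 (SE 0.24, adjusted p = 0.00441 by edgeR). Mthfd2 was the 1 gene of 8 called in the interaction, where 3.17% of all genes tested were DEGs with a negative and 3.09% with a positive value. The size of this difference sat at the DEG limit. It fell inside the limit, at -0.92, -0.98 and -0.89, without the second unstimulated, the third unstimulated or the second IFNα sample, while the adjusted p stayed at or below 0.0279. Shmt1 at 0.77 and Shmt2 at -0.44 had unadjusted p of 0.0288 and 0.0264 and adjusted p of 0.161 and 0.153 by edgeR. Without the third IFNα sample Shmt1 was called as well, at 1.03 with an adjusted p of 0.0976, and without the first, which had 4 counts of Shmt1, the value was 0.45.

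**Figure D3:**
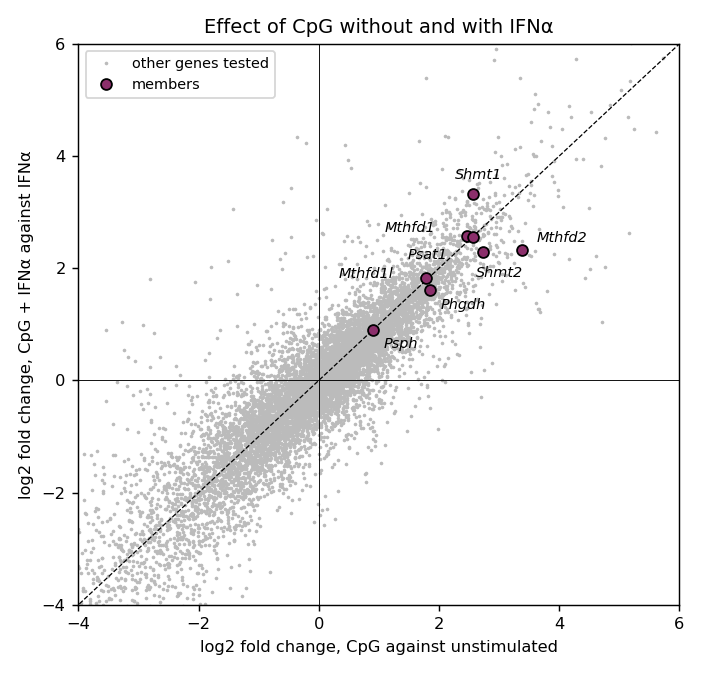
Each point is a gene, placed by its log2 fold change in CpG against unstimulated cells (horizontal) and in CpG plus IFNα against IFNα (vertical), within the window from -4 to 6. The dashed line marks equal change. Mthfd2 lies below the line, at 3.38 and 2.33, Shmt1 lies above it, at 2.56 and 3.33, and the other 6 genes lie within 0.45 of it.

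Mitochondrial and cytosolic enzymes of the same step were compared within each sample as the log2 ratio of their counts, which library depth does not affect. With 3 samples against 3, the exact permutation test cannot give a two-sided p below 0.1, and the smallest adjusted p over the 15 such tests was 0.188. A test of CpG against no CpG that permuted samples only within the 2 IFNα states can reach 0.005. The ratio of Mthfd1l to Mthfd1, the mitochondrial and the cytosolic formate enzymes, was -0.35, -0.36 and 0.13 in unstimulated cells and -0.80, -1.08 and -0.76 with CpG. It was 0.00, -0.23 and 0.20 with IFNα and -0.88, -0.55 and -0.88 with both agents. All 6 samples with CpG lay below all 6 without, and the mean fell by 0.72 (exact permutation test within IFNα states, two-sided p = 0.005, the smallest it can give). Mthfd1 thus rose more than Mthfd1l under CpG.

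The ratio of Mthfd2 to Mthfd1, the dehydrogenases, was -0.25, -1.06 and -0.24 in unstimulated cells, 1.13, 1.24 and 0.51 with IFNα, 0.49, 0.11 and 0.64 with CpG, and 0.77, 0.83 and 0.64 with both. The unstimulated samples were the 3 lowest. CpG against no CpG gave a difference of 0.36 (exact permutation test within IFNα states, two-sided p = 0.225) and of 0.22 without the second unstimulated sample, and IFNα against unstimulated cells gave 1.48 without overlap (exact p = 0.1, adjusted p = 0.188). The ratio of Shmt2 to Shmt1 was between 1.39 and 1.93 in unstimulated cells, between 1.55 and 2.08 with CpG and between 1.78 and 1.87 with both. With IFNα it was 4.48, 2.40 and 2.60, and the highest value belonged to the sample with 4 counts of Shmt1. The difference with CpG was -0.57 (exact permutation test within IFNα states, two-sided p = 0.17), and without that sample it was -0.24.

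**Figure D4:**
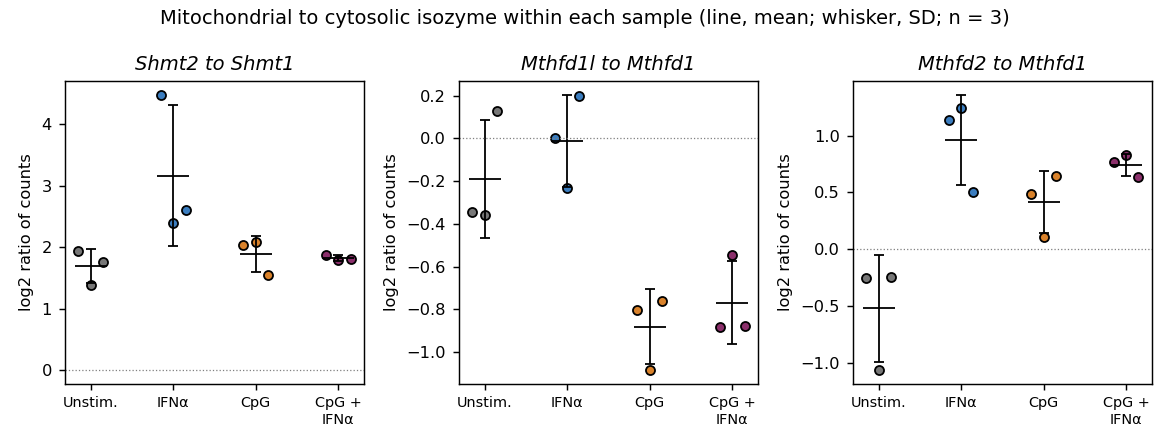
Each panel plots, per sample, the log2 ratio of the counts of a mitochondrial to a cytosolic enzyme gene, with the line at the group mean and the whisker at 1 SD (n = 3). In the panel of Mthfd1l to Mthfd1 every sample with CpG, between -1.08 and -0.55, lies below every sample without it, between -0.36 and 0.20.

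Sequences upstream of 4 genes, those of the first enzymes of serine synthesis and of the mitochondrial Shmt2 and Mthfd2, are shown as examples from both branches of the pathway. RefSeq (GRCm38.p6) gave a promoter for 8 of the 9 genes, with 2 start sites for Psat1. The 4 runs below hold the bases before the annotated start, written 5′ to 3′ toward the gene, and capitals mark CCAAT, the motif bound by NF-Y, or its reverse complement ATTGG.
Phgdh, chr3:98339970-98340219, minus strand: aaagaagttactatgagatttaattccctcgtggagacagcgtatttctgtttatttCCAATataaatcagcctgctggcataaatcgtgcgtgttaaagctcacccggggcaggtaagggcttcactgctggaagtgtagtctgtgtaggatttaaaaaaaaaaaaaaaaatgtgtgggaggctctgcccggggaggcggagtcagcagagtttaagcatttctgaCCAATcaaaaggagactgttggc
Psat1, chr19:15925060-15925309, minus strand: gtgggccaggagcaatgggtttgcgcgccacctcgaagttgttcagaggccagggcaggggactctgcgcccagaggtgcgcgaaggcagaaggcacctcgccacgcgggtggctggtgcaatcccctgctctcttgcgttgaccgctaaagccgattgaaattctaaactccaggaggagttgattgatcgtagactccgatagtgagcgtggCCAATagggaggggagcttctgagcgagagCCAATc
Shmt2, chr10:127522445-127522694, minus strand: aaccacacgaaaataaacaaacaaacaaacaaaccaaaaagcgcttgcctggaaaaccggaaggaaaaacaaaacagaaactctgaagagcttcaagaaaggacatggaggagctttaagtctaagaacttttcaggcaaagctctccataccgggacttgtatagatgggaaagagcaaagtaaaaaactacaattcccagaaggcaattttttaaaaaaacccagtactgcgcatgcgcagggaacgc
Mthfd2, chr6:83317605-83317854, minus strand: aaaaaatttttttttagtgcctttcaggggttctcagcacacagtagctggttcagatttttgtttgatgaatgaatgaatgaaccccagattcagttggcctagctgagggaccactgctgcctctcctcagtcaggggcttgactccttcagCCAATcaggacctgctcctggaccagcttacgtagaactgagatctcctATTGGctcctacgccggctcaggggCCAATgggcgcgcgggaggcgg
CCAAT on either strand was found in 6 of the 8 genes with a promoter, in Phgdh, Psat1, Psph, Shmt1, Mthfd1 and Mthfd2, and not in Shmt2 or Mthfd1l. Mthfd2 held 3 matches, starting 96, 47 and 22 bases before the start site. The motif was in 37.4% of all promoters in the RefSeq table and in 43.1% of those of the tested genes, read over the same window, which also takes in the first 50 bases of the transcript. CACGTG, the E-box that MYC binds, was in none of the 8, in 7.15% of all promoters and in 13.0% of those of tested genes. TGATGNAA, a form of the element that ATF4 and C/EBP share, was in none of the 8, in 3.97% of all and in 2.71% of tested genes, and GAAANNGAA, the core of the interferon-stimulated response element, was in none, in 8.56% of all and in 9.04% of tested genes. Both strands were searched for each, and of these 4 motifs none contains another. A match or its absence describes the letters of this window and no more.

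The neighbouring genes of the pathway were read from lists, which like the 9 genes were drawn up with earlier results known. Of 21 other folate enzymes, 14 were tested, and in CpG against unstimulated cells 7 were DEGs that rose and none fell, against 20.1% and 25.5% of all genes tested, with a median log2 fold change of 1.13. Tyms, the thymidylate synthase that uses methylenetetrahydrofolate, rose by 4.40 on the log2 scale, and Atic and Gart, which put formyl units into purines, rose by 2.45 and 2.34. None of these 14 was a DEG in CpG plus IFNα against CpG, where 2.95% of all genes rose and 2.01% fell, so that 0 of 14 is near the general share.

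Of 18 carriers of folate, serine and related amino acids, 13 were tested, and with CpG 6 rose and 2 fell as DEGs, against 20.1% and 25.5% of all genes. Slc19a1, the reduced folate carrier, rose from between 13.9 and 16.8 CPM to between 103 and 107 CPM in 3 samples each, a log2 fold change of 2.79. Slc7a5, a large neutral amino acid transporter, rose by 3.38 on the log2 scale, and Slc1a4, which takes up serine and alanine, rose from 3 counts in all unstimulated samples to 66, a ratio of 13.8 with a counting interval from 4.53 to 68.8. The sideroflexins, a family of mitochondrial carriers in which Sfxn1 carries serine, did not move together. Sfxn1 rose from 64.4 ± 10.0 to 355 ± 13.3 CPM (SD, n = 3) with CpG, a log2 fold change of 2.46 (adjusted p = 2.93e-17 by edgeR). Sfxn3 and Sfxn5 fell, with log2 fold changes of -3.12 and -2.50. In CpG plus IFNα against CpG, Sfxn2 was a DEG that rose by 1.03 and Sfxn3 a DEG that fell, where 2.95% of all genes rose and 2.01% fell. Sfxn3 went from 26 to 4 counts over 3 samples, and the first CpG sample held 15 of the 26.

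Of 18 genes of the methionine cycle and of serine use, 12 were tested, and with CpG 6 rose as DEGs and none fell, against the same 20.1% and 25.5%. Mat2a, which makes S-adenosylmethionine, rose by 2.28 and Amd1, which draws on it for polyamines, by 2.09 on the log2 scale. Cth, the cystathionine lyase that makes cysteine, had 0 counts in every unstimulated and IFNα sample and between 7 and 26 counts in each sample with CpG. Against a floor of 3 counts per sample it was at least 1.82-fold higher with CpG than in unstimulated cells and at least 4.14-fold higher with CpG plus IFNα than with IFNα. None of the 12 was a DEG in CpG plus IFNα against CpG, again near the general share of 2.95% up and 2.01% down.

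Of 20 regulators and other ATF4 targets, 16 were tested, and with CpG 8 rose and 3 fell as DEGs, against 20.1% and 25.5% of all genes, so that the falling share was near or below the general one. Atf4 itself, the factor that induces serine synthesis genes under amino acid stress, stood at 458 ± 38.0 CPM in unstimulated cells, 356 ± 25.0 CPM with IFNα, 603 ± 22.9 CPM with CpG and 826 ± 44.3 CPM with both (SD, n = 3). Its log2 fold changes were 0.39 with CpG (adjusted p = 0.00155 by edgeR), -0.36 with IFNα (adjusted p = 0.0168) and 0.46 in CpG plus IFNα against CpG (adjusted p = 0.00197), none of them a DEG. With IFNα alone, 6 of the 16 genes of the list were higher and 4 lower with an adjusted p under 0.1, against 12.4% and 11.9% of all genes. Whether Atf4 has a part in the rise of Mthfd2 and Shmt2 was not tested.

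Among the targets, Asns, the asparagine synthetase, went from 4 to 175 counts over 3 samples with CpG, a ratio of 27.5 with a counting interval from 10.6 to 102. Chac1, a glutathione-degrading enzyme, was at 0 counts in unstimulated cells and at least 4.19-fold higher with CpG, and Trib3, a pseudokinase that restrains ATF4, rose from 5 to 104 counts over 3 samples. Ddit4, Cebpb and Ddit3, stress-induced genes, fell by 1.88, 1.81 and 1.40 on the log2 scale. Myc, the growth factor-induced transcription factor, stood at 179 ± 41.8 CPM in unstimulated cells, 38.0 ± 10.9 CPM with IFNα, 568 ± 45.2 CPM with CpG and 709 ± 55.9 CPM with both (SD, n = 3), with a log2 fold change of 1.66 with CpG (adjusted p = 2.94e-12 by edgeR). In CpG plus IFNα against CpG, Atf3 and Cebpb were the 2 DEGs among the 16 tested genes of the list, at 1.32 and 1.04. Of all genes tested, 2.95% rose and 2.01% fell there.

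The responses of the 4 related lists to IFNα went both ways. With IFNα alone, 11 of their 55 tested genes were higher and 11 lower with an adjusted p under 0.1 by edgeR, against 12.4% and 11.9% of all genes, and 8 rose and 4 fell as DEGs, against 4.56% and 4.07%. Of the same 55 genes, 10 were higher and 5 lower in CpG plus IFNα against CpG with an adjusted p under 0.1, against 6.54% and 8.83% of all genes.

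**Figure D5:**
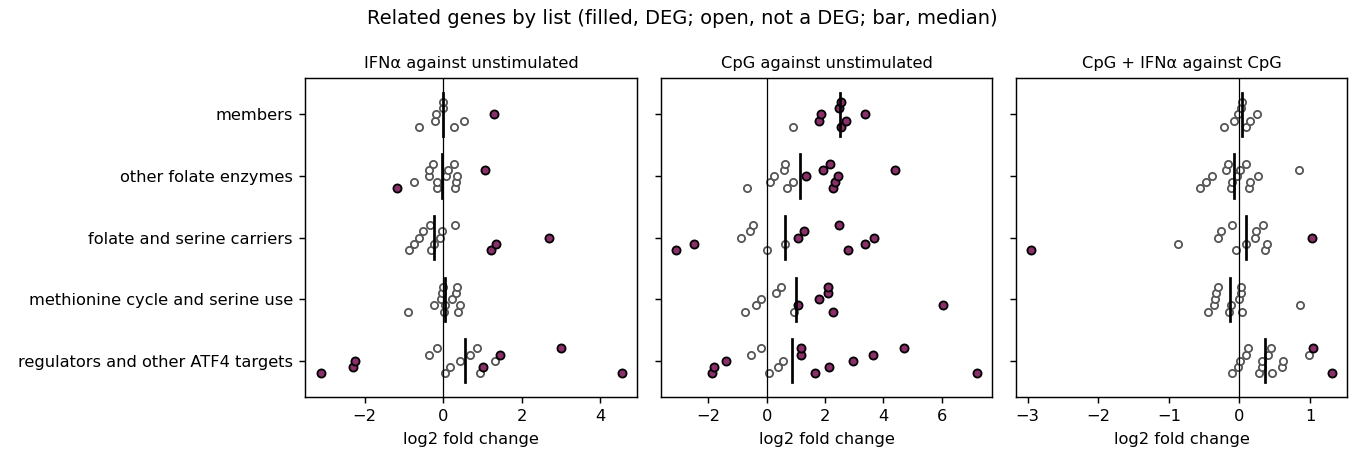
Each point is a tested gene of a list, placed by its log2 fold change in 3 comparisons, filled where it was a DEG, with a bar at the list's median. Under CpG the medians are 2.52 for the 8 genes and between 0.64 and 1.13 for the 4 related lists, and in CpG plus IFNα against CpG the median of the 8 genes is 0.03.

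The course of the 8 genes over the 12 samples was shared with many genes outside the pathway. Their mean z-score of log2 (CPM + 4) was most like Ddx1, Rcl1, Nop2, Stoml2, Chchd1, Wdr18, Metap2 and Ran, with Pearson r from 0.995 to 0.996 over 12 samples, and 1006 genes that are not in the set had r over 0.95. Of the 8 genes themselves, Psph at 0.893 and Mthfd2 at 0.939 were least like the mean, and Mthfd1l at 0.992 was most like it. Each of the 8 is part of that mean, which raises its r. These values describe 12 samples that fall into groups with and without CpG, and they share their libraries.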

How the data were processed

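RNA of 12 samples in 4 groups of 3 was measured by BRB sequencing. The table that the authors deposited holds UMI counts per gene, without normalization. Per the submitters' processing notes the tools were UMI-tools 1.1.2, Trim Galore 0.6.7, HISAT2 2.2.1 and featureCounts 2.0.1 on GRCm38, and the study's methods state that UMI duplicates were removed. Oligo(dT) priming counts transcripts at their 3′ ends, and the strand setting of the read assignment is not given in the sources used here.

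Samples were grouped by the treatment in the labels. Counts were scaled by TMM, filtered with filterByExpr by group and fitted together over all 12 samples with edgeR 4.0.16 (quasi-likelihood test, R 4.3.3). P-values were adjusted by the Benjamini-Hochberg method over all 9431 genes tested, and the limits for a DEG were an adjusted p of 0.1 and a log2 fold change of 1 in size, which is the fold limit in the study's figure legends, whereas its methods state DESeq2 with a log2 limit of 2, run here as an alternative limit. The interaction is the CpG response with IFNα minus that without. Intervals of log2 fold changes are 95% from the standard error. CPM values are normalized by TMM. Ratios of enzyme counts used log2 with 0.5 added to each count and exact permutation tests (SciPy 1.17.1). A group at 0 counts was set to a floor of 3 counts per sample, and counting intervals are exact and cover counting error only. Gene positions are from GENCODE M21 and promoters from RefSeq GRCm38.p6. The fit was tested on simulated data.

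The 9 genes and all lists were chosen with earlier results of these data known. Named besides the 9 genes were, per list and direction, up to 3 DEGs of CpG against unstimulated cells with the largest log2 fold change whose samples did not overlap, every DEG of CpG plus IFNα against CpG, Atf4, Myc, and the 8 other genes most like the mean of the set. Genes named under other observations, and Sfxn1, were chosen outside this rule after their values were seen. Alternatives were other scalings, filters and limits, DESeq2 1.42.0, thinning of all samples to the lowest total, separate fits for each pair of groups, removal of mitochondrial and rRNA genes, the replicate number as a block, another pseudocount for the ratios and each sample left out in turn. The deposited list of sample barcodes was not used here, and some items of the lists and of the sort are not reported here.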

Additional observations from a re-analysis of the deposited data

Results flagged for a closer look

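The response to CpG differed with and without IFNα, by edgeR's test of the interaction with a log2 difference over 1 in size, in 1 of the 8 genes and in 8 of the 55 tested genes of the related lists, 3 positive and 5 negative, against 3.09% and 3.17% of all genes tested. Mthfd2 had an interaction of -1.05 (adjusted p = 0.00441 by edgeR). Myc was at 2.60, Atf3 at 4.44 and Cebpb at 3.27, and all 3 were lower with IFNα alone than in unstimulated cells, by 2.28, 3.12 and 2.24 on the log2 scale in the fitted values. Pck2 was at -1.47 (adjusted p = 4.37e-06 by edgeR). Atf3 was uneven in unstimulated cells, with between 10 and 95 counts.

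The other 4 rested on few counts in at least 1 group, and their fitted values depend on the prior count. Trib3 was at -2.38, with 5 counts over the 3 unstimulated samples and 51 with IFNα. Slc1a4 was at -2.47, with 3 and 26 counts. Chac1 was at -4.65, with 0 and 7 counts. Sfxn3 was at -3.24, with 26 counts over the 3 CpG samples, 15 of them in the first, and 4 with both agents.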

How the results depend on the processing

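The 7 DEGs of CpG against unstimulated cells, of CpG plus IFNα against IFNα and of CpG plus IFNα against unstimulated cells were 7 or 8 under every alternative except a log2 limit of 2, which left 5, and in CpG plus IFNα against CpG the count stayed 0. Depth and the overlapping gene limit what can be said of Aldh1l2. The cause of the changes below was not tested.

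For IFNα against unstimulated cells, the count of 1 was 0 at a log2 limit of 2 and 2 with no limit on the fold. For the interaction, the count of 1 was 0 with library size only, with no filter on low counts, at a log2 limit of 2 and without mitochondrial and rRNA genes, and lay between 0 and 2 when each sample was left out. In these fits Mthfd2 was at -0.97 with library size only, -0.98 with no filter and -0.97 without mitochondrial and rRNA genes. Psph was a DEG in CpG plus IFNα against IFNα with no filter, at 1.01, and without the third IFNα sample, at 1.04, and in CpG plus IFNα against unstimulated cells without the second unstimulated sample, at 1.09.

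Values near 0 that failed the test changed sign. In IFNα against unstimulated cells, Mthfd1l was 0.00048 with no filter. In CpG plus IFNα against CpG, Psat1 was 0.0038 with DESeq2 size factors, 0.045 with no filter, 0.0064 with DESeq2, 0.012 when only those groups were fitted, 0.056 in thinned counts and 0.017 without mitochondrial and rRNA genes. In the interaction, Psat1 and Psph were 0.026 and 0.029 with DESeq2 size factors, 0.064 and 0.070 with library size only, 0.052 and 0.053 with no filter, 0.027 and 0.029 with DESeq2, 0.093 and 0.060 in thinned counts, and 0.063 and 0.068 without mitochondrial and rRNA genes, and Mthfd1 was -0.042 in thinned counts.

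With each sample left out, values that changed sign ranged as follows. In IFNα against unstimulated cells, Psat1 lay between -0.13 and 0.09, Psph between -0.43 and 0.17 and Mthfd1l between -0.16 and 0.15. In CpG plus IFNα against CpG, Phgdh lay between -0.041 and 0.11, Psat1 between -0.14 and 0.10, Mthfd1 between -0.16 and 0.0021 and the log2 ratio of Shmt2 to Shmt1 between -0.24 and 0.028. In the interaction, Psat1 lay between -0.14 and 0.11, Psph between -0.39 and 0.21 and Mthfd1l between -0.10 and 0.20.

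The labels do not say that samples with the same number share an origin, and 6 of 18 pairs with the same number had deviations with r over 0.1 (r from -0.07 to 0.22), so the samples were not treated as paired. These 6 were among the 9 such pairs of the stimulated groups, which all had r above 0 (0.0043 to 0.22, against -0.22 to 0.050 for different numbers), and the 9 pairs with unstimulated samples had r from -0.07 to 0.045. The deviations of the 3 samples of a group sum to 0 per gene. Pairs of different numbers therefore tend to be negative where those of the same number are positive. A sample was most like its own number in 19 of 36 cases, with 3 numbers to choose from. Hbb-bs, a haemoglobin gene, was highest in number 1 and lowest in number 3 in all 4 groups, at 220 and 31.8 CPM in unstimulated cells. The data thus hint at a shared origin of the numbers that the labels do not state. With the replicate block the counts of DEGs were 1 for IFNα, 7 for each comparison of CpG with no CpG, 0 for CpG plus IFNα against CpG and 1 for the interaction, and Psat1 with IFNα alone was 0.011.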

Other observations

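With IFNα alone, genes of the related lists moved in both directions. The genes named here were chosen after their values were seen. Pck2, the mitochondrial phosphoenolpyruvate carboxykinase and an ATF4 target, had a log2 fold change of 1.45 (SE 0.14, adjusted p = 6.64e-10 by edgeR), and it did not pass the test with CpG alone, at 0.09. Sfxn2 rose by 1.33, from 20.6 ± 2.88 to 51.9 ± 6.62 CPM (SD, n = 3), and was at 20.5 ± 2.98 CPM with CpG and at 42.2 ± 3.95 CPM with both agents. Slc7a5 rose from 13.9 ± 5.95 to 32.7 ± 4.75 CPM, a log2 fold change of 1.22 (adjusted p = 0.000375 by edgeR), and Aldh18a1, the first enzyme of proline synthesis, had 0.93 (adjusted p = 0.00339), under the DEG limit. Carriers that fell were Slc38a1, with a log2 fold change of -0.73 (adjusted p = 3.18e-05 by edgeR), Slc1a5 at -0.52, Abcc1 at -0.86, Sfxn1 at -0.63 and Slc38a2 at -0.33, all under the DEG limit. Of the folate enzymes outside the set, Gcsh, the lipoate carrier of the glycine cleavage system, fell from 16.9 ± 6.08 to 7.18 ± 1.89 CPM, a log2 fold change of -1.18 (adjusted p = 0.0110).

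Of the 55 related genes, 10 were higher in CpG plus IFNα than in CpG and 5 were lower, with an adjusted p under 0.1. Of all genes tested, 6.54% were higher and 8.83% lower. Of the lower ones, 4 were under the DEG limit, and 3 of these are given here. Ahcy, the adenosylhomocysteinase, had a log2 fold change of -0.45 (adjusted p = 0.0755 by edgeR), Gcsh -0.40 (adjusted p = 0.0968) and Sfxn1 -0.30 (adjusted p = 0.0585). Among the higher ones were Ddit4 at 0.99 (adjusted p = 0.00332), Slc3a2, a partner of amino acid transporters, at 0.39 (adjusted p = 0.0204) and Slc1a5, a glutamine carrier, at 0.37 (adjusted p = 0.0258).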
